A study of Mus musculus with 3 samples.

Results

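The 6 chemokine receptor genes Ccr1, Ccr2, Ccr7, Ccrl2, Cx3cr1 and Cxcr4 were taken by name from the 32285 genes of the count matrices and followed through macrophages exposed to lipoproteins of the Lyme disease spirochete. Each symbol matched 1 row. The cells were murine bone marrow derived macrophages (BMDMs) of female C3H/HeN mice aged 6 to 8 weeks. They were grown in medium conditioned by L929 cells, a fibroblast line that secretes M-CSF. The untreated library (UI) received PBS and was collected after 4 hours. The LP1 and LP4 libraries received 1 µg/mL of purified Borrelia burgdorferi lipoproteins (BbLP) for 1 hour and 4 hours. No control was collected at 1 hour, so in LP1 over UI the treatment cannot be told apart from the time of collection. All 3 groups shared strain, sex, age and culture, and none carried a genetic change. Each condition was a single droplet library of 3′ transcript tags made from 3 pooled wells, so no replicate existed and no test between conditions was possible. For these libraries the study describes cells of 3 mice that were treated separately before pooling, whereas its general culture protocol pools the marrow. Every interval below is an exact 95% interval that covers counting error only.

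After the filters 6071 cells of UI, 5065 of LP1 and 4670 of LP4 remained, with medians of 5133, 9343 and 11784 unique molecular identifiers (UMIs, 1 per captured transcript) per cell. Depth therefore moved with treatment. Between 4 and 10 cell barcodes were shared by a pair of libraries. The 12 macrophage markers were detected in each library and summed to between 12032 and 12549 CPM, the UMIs of a gene scaled to a library total of 1000000. Lyz2 alone gave 9209 CPM in UI, 9684 in LP1 and 8717 in LP4, so the sum says little about the other markers. These moved in both directions. From UI to LP4, C1qa went from 70.6 to 26.7 CPM and C1qb from 58.2 to 27.6. Cd14 went from 291 to 1399 CPM and Fcgr1 from 109 to 244. The 5 lymphocyte markers summed to 0.616 CPM in UI, 0.8004 in LP1 and 0.733 in LP4. Among them only Cd3e and Trbc2 were at 0 in all libraries. The 7 monocyte markers summed to 78.8 CPM in UI, 65.9 in LP1 and 563 in LP4, and the 10 neutrophil markers to 547, 451 and 707 CPM. Their part in the results below was not tested.

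Chemokine receptors are membrane proteins with a transmembrane helix bundle that couple to inhibitory G proteins and steer leukocytes along gradients of chemokines. Ccr1 binds the inflammatory chemokines Ccl3 and Ccl5, Ccr2 brings monocytes out of the marrow and into tissue along Ccl2, and Cx3cr1 is the receptor of the membrane-bound chemokine Cx3cl1. Cxcr4 holds cells in the marrow by binding Cxcl12, and Ccr7 takes mature dendritic cells to lymph nodes along Ccl19 and Ccl21. Ccrl2 is an atypical member that does not signal in the usual way and presents the chemoattractant chemerin, the product of Rarres2, to cells that carry Cmklr1.

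In the GENCODE annotation of GRCm38, the build behind the mm10 counts, 4 of the 6 genes lay on chromosome 9. Ccr1 (ENSMUSG00000025804) spanned chr9:123962124-123968692 on the minus strand and Ccr2 (ENSMUSG00000049103) chr9:124101950-124113557 on the plus strand. Ccrl2 (ENSMUSG00000043953) spanned chr9:111054486-111057519 and Cx3cr1 (ENSMUSG00000052336) chr9:119901616-120069879, both on the minus strand. Cxcr4 (ENSMUSG00000045382) was at chr1:128588199-128592293 and Ccr7 (ENSMUSG00000037944) at chr11:99144196-99155077, both on the minus strand. No exon of a member overlapped an exon of another counted gene on its own strand. The annotated Cx3cr1 locus, 168264 bases long, overlapped 6 counted genes on the opposite strand. It also overlapped the protein-coding genes Gorasp1, Csrnp1 and Xirp1 on its own strand. An effect of this on the Cx3cr1 counts was not tested.

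Promoter windows of 300 bases, from 250 before to 50 after a RefSeq transcription start on GRCm38.p6, were given for 5 of the members, and Ccr7 had no entry. The windows of Ccr1 and Ccrl2 are shown because these were the receptors with the most UMIs in every library, and because a match to the NF-kB consensus, searched on both strands, was found in these windows alone among those of the members. They lie at chr9:123968643-123968942 for Ccr1 and chr9:111057469-111057768 for the first of 3 listed starts of Ccrl2, both on the minus strand. Capitals mark the match, and the sequences read 5′ to 3′ on the strand of the gene.
Ccr1: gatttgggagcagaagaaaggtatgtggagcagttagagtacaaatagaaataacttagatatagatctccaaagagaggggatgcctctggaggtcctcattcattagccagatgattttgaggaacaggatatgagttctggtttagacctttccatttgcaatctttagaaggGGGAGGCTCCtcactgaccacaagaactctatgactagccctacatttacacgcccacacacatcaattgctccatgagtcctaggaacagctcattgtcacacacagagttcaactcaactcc
Ccrl2: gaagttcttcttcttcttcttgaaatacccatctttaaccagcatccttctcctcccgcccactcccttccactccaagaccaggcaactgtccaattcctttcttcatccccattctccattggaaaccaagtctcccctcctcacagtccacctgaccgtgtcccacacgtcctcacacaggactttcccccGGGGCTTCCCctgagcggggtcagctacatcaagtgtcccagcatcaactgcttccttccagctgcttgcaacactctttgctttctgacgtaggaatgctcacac
The match began 74 bases before the start of Ccr1 and 56 bases before that of Ccrl2. It was present in 8.46% of the 32851 windows of all genes. The core of the interferon-stimulated response element, GAAA and GAAA spaced by any 2 bases (3.44% of all windows), and the AP-1 motif TGANTCA (7.81%), both searched on both strands, were in none of the members' windows. Such a match describes the letters of these windows, and binding was not measured.

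Of the receptors with enough UMIs to compare, Ccr1 changed most. Its level was 67.4 CPM in UI (64.7 to 70.2), 99.9 CPM in LP1 (97.2 to 103) and 454 CPM in LP4 (449 to 459). The 3 intervals did not overlap, and the level went up at each time. Ccr1 was 6.73-fold higher in LP4 than in UI, a log2 ratio of 2.75 (2.69 to 2.81) that exceeded those of 98.3% of the 12714 genes tested. Between LP1 and LP4 the log2 ratio was 2.18 (2.14 to 2.23), against 0.57 (0.50 to 0.64) between UI and LP1, so most of the increase lay between the later 2 libraries.

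Ccrl2 followed another course. It measured 147 CPM in UI (144 to 152), 212 CPM in LP1 (208 to 216) and 204 CPM in LP4 (201 to 208), and it gave the most UMIs of the members in UI and LP1. The log2 ratio was 0.52 (0.47 to 0.57) for LP1 over UI and 0.47 (0.42 to 0.52) for LP4 over UI, both short of 2-fold. The level at 4 hours differed from that at 1 hour by -0.05 (-0.09 to -0.01), a difference whose sign depended on the scaling of the libraries.

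Ccr2, Cxcr4 and Cx3cr1 were each lower in LP4 than in UI. Ccr2 was at 19.5 CPM in UI (18.1 to 21.0), 26.5 CPM in LP1 (25.2 to 28.0) and 13.2 CPM in LP4 (12.3 to 14.1). Cxcr4 had the same order, with 15.5 CPM in UI (14.2 to 16.8), 22.1 CPM in LP1 (20.8 to 23.4) and 8.40 CPM in LP4 (7.69 to 9.16). For both, LP1 was the highest library and LP4 the lowest, with no overlap of intervals. Cx3cr1 alone was lower in LP1 than in UI as well, with 30.4 CPM in UI (28.6 to 32.2), 27.3 CPM in LP1 (25.9 to 28.8) and 16.2 CPM in LP4 (15.2 to 17.2), although its intervals in UI and LP1 overlapped.

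**Figure D1:**
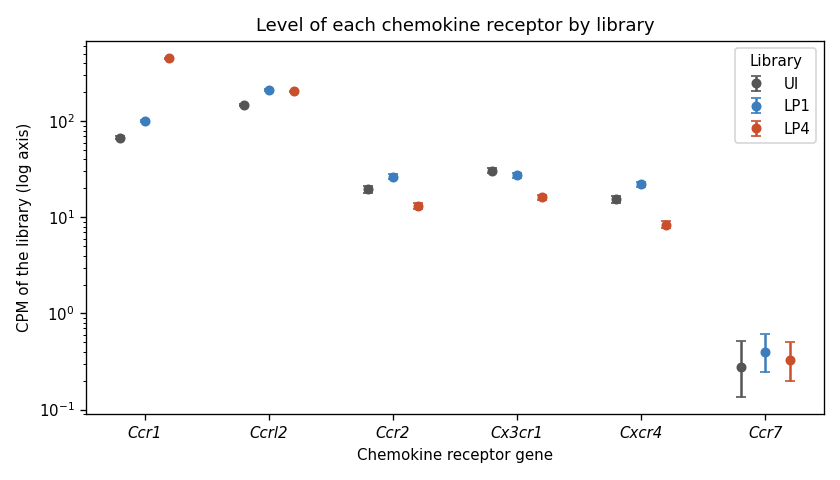
CPM of each receptor (log vertical axis) in UI, LP1 and LP4, 1 library each, where points are library values and bars exact 95% Poisson intervals of counting error. Ccr1 stands at 454 CPM in LP4 above 67.4 in UI, Cxcr4, Ccr2 and Cx3cr1 have their lowest point in LP4, and Ccr7 stays below 1 CPM.

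A gene was counted as past 2-fold when its ratio reached 2-fold in either direction, the interval of the ratio left out no change, and the pair of libraries held at least 50 UMIs. Ccr7 was below this minimum, so 5 members were counted. For LP1 over UI, 0 of the 5 were past 2-fold, where 2.71% of 12526 genes were, 1.09% higher and 1.62% lower. The log2 ratios of Ccr1, Ccrl2, Cxcr4 (0.51, 0.37 to 0.66) and Ccr2 (0.44, 0.31 to 0.58) nevertheless lay within a narrow band, and each exceeded those of at least 91.5% of genes. Cx3cr1 had -0.15 (-0.27 to -0.04), and the median of all genes was -0.03.

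For LP4 over UI, 1 of the 5 was past 2-fold, the higher Ccr1, where 24.7% of 12714 genes were, 11.1% higher and 13.6% lower. Cx3cr1 at -0.91 (-1.04 to -0.79), Cxcr4 at -0.88 (-1.06 to -0.70) and Ccr2 at -0.57 (-0.72 to -0.42) were short of the limit. The median of all genes was -0.13. Median-of-ratios scaling put that median at 0.02 and moved the share of higher among all called genes from 44.8% to 55.9%, and under it Cx3cr1 had -0.76 and Cxcr4 -0.73.

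For LP4 over LP1, 3 of 5 members were past 2-fold, where 21.0% of 12878 genes were, 9.83% higher and 11.1% lower. Ccr1 rose, Cxcr4 fell with a log2 ratio of -1.39 (-1.55 to -1.24), and Ccr2 fell with -1.01 (-1.14 to -0.88). The Ccr2 value lay at the limit and was -0.92 with TMM scaling. Cx3cr1 had -0.76 (-0.88 to -0.64). All comparisons share a library with another, so the ratios of a gene are not independent.

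**Figure D2:**
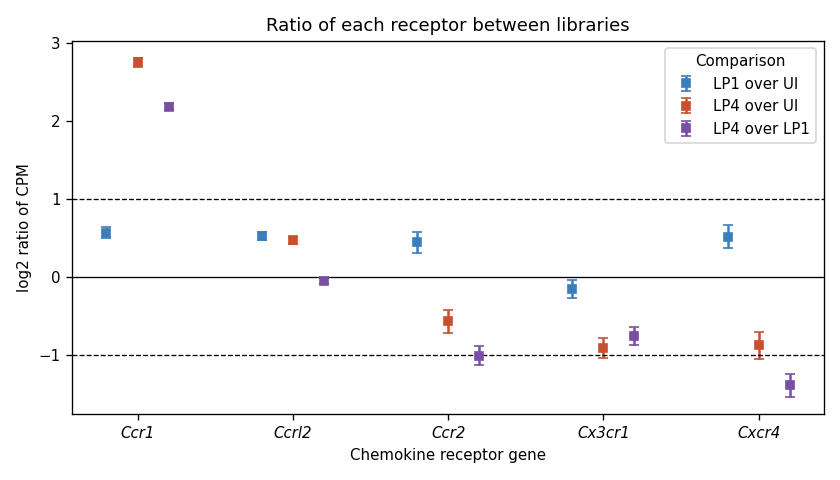
log2 ratio of CPM between libraries for the 5 receptors counted, where squares are ratios, bars exact 95% intervals of counting error and dashed lines 2-fold. Blue squares (LP1 over UI) lie between -0.15 and 0.57, and the red square (LP4 over UI) of Ccr1 lies at 2.75.

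The composition of the receptor transcripts changed accordingly. The 6 genes together made up 281 CPM in UI, 388 in LP1 and 696 in LP4. Ccrl2 supplied 52.6% of these UMIs in UI and 29.3% in LP4, and Ccr1 24.0% and 65.2%. Cx3cr1 went from 10.8% to 2.32%, and Ccr2 from 6.96% to 1.89%.

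Since deeper cells yield more detections, each cell was thinned to 2000 UMIs before cells with a receptor UMI were counted, which left out 122 cells of UI, 13 of LP1 and 45 of LP4. Ccr1 was then found in 12.5% of cells in UI (11.7 to 13.4), 16.9% in LP1 (15.9 to 18.0) and 54.5% in LP4 (53.0 to 55.9). At their own depth the shares were 28.7%, 51.8% and 90.1%. The top 1% of LP4 cells held 4.93% of the Ccr1 UMIs of that library. No cell type in these cultures is known to lack Ccr1, so these shares have no measured background. In the neutrophil-like cells of LP4, a Ccr1 UMI was found in 21.4% after thinning and in 42.9% at own depth. Cells that had any Ccr1 UMI held a mean of 1.38 in UI, 2.00 in LP1 and 6.62 in LP4, unthinned.

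Thinned shares of Ccrl2 were 25.5% in UI (24.4 to 26.6), 33.5% in LP1 (32.2 to 34.8) and 31.1% in LP4 (29.7 to 32.4). The remaining receptors were rare per cell. Ccr2 was found in 3.83%, 4.63% and 2.29% of cells in the same order of libraries, Cxcr4 in 3.53%, 5.25% and 1.58%, and Cx3cr1 in 4.86%, 5.38% and 2.92%. For Cx3cr1 the order of UI and LP1 in shares went against that in CPM and is not read. At own depth LP4 exceeded UI for these 3 genes, for example with 12.8% against 12.4% for Cx3cr1, in a library whose cells were deeper.

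The top 1% of cells held 28.8% of Ccr2 UMIs in UI, 23.3% in LP1 and 32.3% in LP4. For Cx3cr1 these shares were 22.5%, 21.0% and 24.1%, and for Cxcr4 19.7%, 12.9% and 23.3%. No order of unevenness is read from them, since the variance over the mean of thinned counts in UI was 1.46 for Cx3cr1 and 1.36 for Ccr2.

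Neutrophils largely lack Ccr2, so its share in the neutrophil-like cells was read as a measure of free RNA. Their median depths were 2940 UMIs in UI, 5891 in LP1 and 9262 in LP4, and 21, 21 and 28 of them remained after thinning. A Ccr2 UMI was found in 4.76%, 4.76% and 0% of these cells, where 0 of 28 allows a share of up to 10.7% of cells with a UMI. The interval in UI was 0.120 to 23.8 and took in the share of all cells, so the low shares of Ccr2 could not be told from background in this way, although its levels differed between clusters as given below. Cx3cr1 was planned for the same reading. Its shares in these cells were 4.76% in UI (0.120 to 23.8), 9.52% in LP1 and 7.14% in LP4, against 4.86%, 5.38% and 2.92% of all cells. Its low shares therefore could not be told from background in this way either. In LP4 its level in the neutrophil-like cells was above that of macrophage-like cells. Whether the neutrophil-like cells lacked Ccr2 or Cx3cr1 was not tested.

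**Figure D3:**
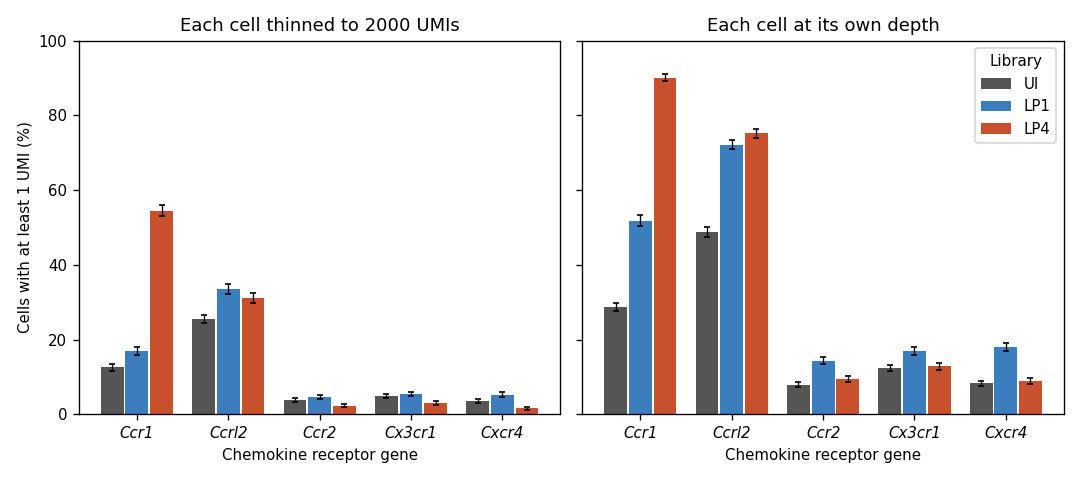
Percent of cells with at least 1 UMI of each receptor in UI, LP1 and LP4, with each cell thinned to 2000 UMIs (left) or at its own depth (right), where bars carry exact 95% binomial intervals. After thinning, Ccr1 reaches 54.5% of cells in LP4, and Ccr2, Cx3cr1 and Cxcr4 keep their lowest share there, which the unthinned panel does not show.

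Ccr7 UMIs were rare. The libraries held 10, 21 and 20 of its UMIs, and all 51 came from 5 of the 15806 cells. In UI 2 cells held 7 and 3 UMIs, in LP1 a single cell held 21, and in LP4 2 cells held 19 and 1. The first 4 of these cells belonged to the dendritic cell-like cluster, and the cell with 1 UMI was cycling-like. Of the 14363 macrophage-like cells of the 3 libraries 0 had a Ccr7 UMI, which allows a share of up to 0.0209% of cells with a UMI and does not limit the share of cells that express the gene below detection.

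Genes read in the Ccr7 cells were chosen after their values were seen. The LP1 cell held 60 of the 78 UMIs of the dendritic cell chemokine Ccl22 in its library, 14 of the 19 of Fscn1, an actin bundler of mature dendritic cells, and 114 of the 139 of Il12b. The LP4 cell with 19 Ccr7 UMIs held 29 of 35 Ccl22 UMIs and 7 of 27 Fscn1 UMIs, but 0 of the 65 Il12b UMIs of its library. Both had 0 UMIs of the macrophage receptor gene Csf1r. The UI cell with 7 Ccr7 UMIs had 2 UMIs of Fscn1 and 3 of Ccl22 but also 77 of Lyz2 and 2 of Csf1r, so its profile was mixed. The UI cell with 3 Ccr7 UMIs had 0 UMIs of Fscn1, Ccl22 and Il12b, 2 of Csf1r and 69 of the antigen presentation gene Cd74.

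Cells of all libraries were clustered together without any chemokine receptor gene and without genes that differed over 1.5-fold between libraries, so receptor levels did not shape the clusters. Of these, 8 clusters with at least 50 cells in each library were compared. A to F were macrophage-like, G was cycling-like with Top2a and Cenpf among its leading genes, and H was dendritic cell-like with the antigen presentation genes H2-Aa and Cd74. The name of H rests on 4 such genes alone, H2-Eb1, H2-Ab1 and these 2. In H, 6 of the 12 macrophage markers were found in at least 50% of cells, as many as in the macrophage-like C and E. Whether the cells of H were dendritic cells was not tested. Cluster F, led by genes such as Gbp4, Cxcl5 and F13a1, held 23.4% of LP4 but 1.22% of UI and 1.01% of LP1. Cluster B held 26.9% of UI, 22.8% of LP1 and 1.91% of LP4.

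Ccr1 was higher in LP4 than in UI in 8 of 8 clusters, with log2 ratios from 2.00 in H to 2.88 in D. In the dendritic cell-like H it started at 122 CPM in UI and reached 187 in LP1 and 488 in LP4. The cycling-like G had the lowest level in each library, with 40.7, 52.6 and 219.6 CPM. Within LP4, the level in G was 2.17-fold lower than in all macrophage-like cells together (log2 ratio -1.12, -1.21 to -1.03). Cluster F had the highest level in LP4, at 700.0 CPM, and held 25.9% of the Ccr1 UMIs of that library. Without F the log2 ratio of Ccr1 for LP4 over UI was 2.60.

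Ccrl2 split the macrophages differently. Cluster B, led by the immediate early genes Egr3, Nr4a2 and Fosb and by Apoe, was highest with 319 CPM in UI and 489.9 in LP1. Cluster A, led by Ccnd1, Fgf13 and the replication genes Mcm3 and Mcm6, was lowest with 70.0 CPM in UI, 104 in LP1 and 107 in LP4. For LP4 over UI the interval lay above 0 in 6 of 8 clusters and held 0 in B and H, the clusters with the highest levels in UI. In E the log2 ratio was 1.06 (0.88 to 1.24), from 76.6 to 159 CPM. Ccrl2 in all cells had a log2 ratio of 0.25 (0.20 to 0.30) for LP4 over UI without F, against 0.47 with it.

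Ccr2 had the widest spread over clusters. In UI it was at 97.9 CPM in F (66.1 to 140) and 54.7 in H against 2.70 CPM in E, a 36.3-fold range. E, led by Ctsk, Mmp9 and Atp6v0d2, genes known from osteoclasts, was the lowest cluster in all libraries, with 4.14 CPM in LP1 and 4.11 in LP4. For LP4 over UI, Ccr2 was lower in 5 of 8 clusters with intervals below 0, most in F, from 97.9 to 25.6 CPM with a log2 ratio of -1.93 (-2.48 to -1.34). Its interval held 0 in B, C and E. F, high in Ccr2, made up far more of LP4 than of UI, and the log2 ratio over all cells was -0.82 without F and -0.57 with it.

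Among clusters A to H, Cx3cr1 was highest in the cycling-like G in every library, at 48.5 CPM in UI, 44.3 in LP1 and 31.5 in LP4. In LP4 the level in G was 31.5 CPM against 14.8 in macrophage-like cells, a log2 ratio of 1.09 (0.84 to 1.34). Cluster A came second in each library, and its interval overlapped that of G in UI and LP1. Cx3cr1 was lower in LP4 than in UI in 7 of 8 clusters, and only in E did the interval hold 0. The dendritic cell-like cells had the lowest log2 ratio, -2.57 (-4.18 to -1.19), from 33.5 to 5.64 CPM on 19 and 6 UMIs. The place of the highest level depended on the clustering. At Leiden resolution 0.8 a macrophage-like cluster exceeded the cycling-like one in UI, with 76.7 against 46.3 CPM, and in LP1, with 59.6 against 43.3. In LP4 the cycling-like cluster was highest there too, at 31.2 against 29.9 CPM, with overlapping intervals.

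Among clusters A to H, Cxcr4 was highest in B in all libraries, with 30.5 CPM in UI, 50.2 in LP1 and 16.9 in LP4, the last on 12 UMIs and with an interval (8.72 to 29.5) that overlapped that of F. It was lower in LP4 than in UI in 5 of 8 clusters, namely A to E. The cycling-like G had 7.75 CPM in UI, 17.1 in LP1 and 9.91 in LP4, and its log2 ratio of 1.14 (0.53 to 1.80) for LP1 over UI was the highest of the clusters. Without F, or in macrophage-like cells alone, Cxcr4 fell past 2-fold between UI and LP4, with log2 ratios of -1.07 and -1.02.

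**Figure D4:**
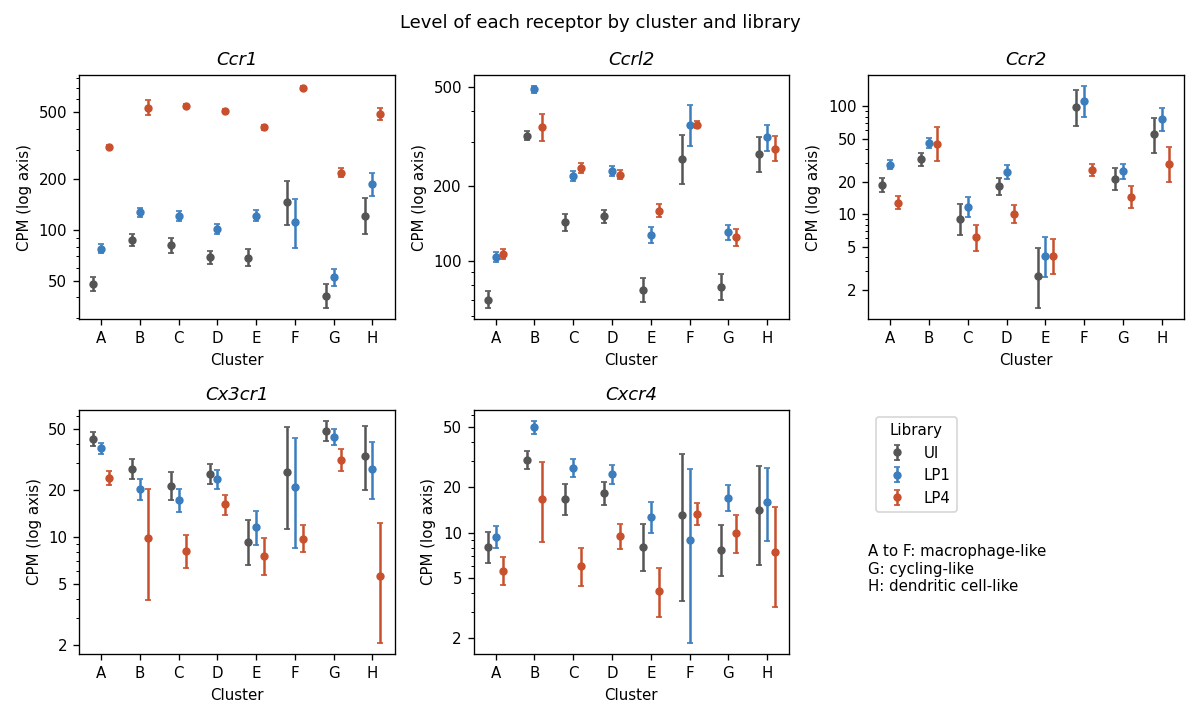
CPM (log vertical axes) of 5 receptors in clusters A to H, by library, where points are sums over the cells of a cluster and bars exact 95% Poisson intervals. Ccr1 in LP4 stands above UI and LP1 in each cluster, Ccr2 is lowest in E, Cx3cr1 is highest in G among these clusters, and Ccrl2 and Cxcr4 peak in B in UI and LP1.

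Cells with more than 1 kind of receptor UMI were counted after thinning, which lowers such counts. At own depth in LP4, Ccr1 was found in 90.1% of cells and Ccrl2 in 75.1%. The shares that follow are those after thinning. At least 1 member was found in 41.4% of cells in UI, 50.5% in LP1 and 70.2% in LP4, and at least 2 in 8.15%, 12.7% and 21.4%. Ccrl2 and Cxcr4 met in the same cell 1.47 times as often as independent detection would give in UI (1.15 to 1.85) and 1.37 times in LP1 (1.13 to 1.65), but 0.976 times in LP4 (0.653 to 1.40). Ccr1 and Ccrl2 met 1.15 times as often in UI (1.00 to 1.31), 1.22 times in LP1 (1.10 to 1.35) and 1.08 times in LP4 (1.01 to 1.15). Ccr1 and Cx3cr1 met 0.724 times as often in LP4 (0.539 to 0.953). In LP1 their ratio was 0.699 (0.468 to 1.00) and in UI 1.28 (0.949 to 1.69), with intervals that took in independent detection. These ratios pool clusters that differ in level, and cells of a library are not replicates.

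Over the 24 combinations of cluster and library, the genes with the most similar profile, by Pearson's r of log2(CPM + 1) among 6328 genes, were Cd274 (0.95), Ms4a6d and Isg15 for Ccr1. Cd274 encodes the checkpoint ligand PD-L1, and Isg15 is an interferon-induced modifier. Cd274 measured 176 CPM in UI, 181 in LP1 and 1069.6 in LP4, and Isg15 68.6, 85.4 and 700.0 CPM, values that belong to the pattern by which both were chosen. For Ccrl2 the genes were Rcbtb2 (0.94), Gm6377 and Rbms1. Cx3cr1 was most like Eid1 (0.91), Parp1 and Utp14a, and Cxcr4 most like Irs2 (0.90), Hnrnpll and Erbin. Rpl11 (0.92), Cdkn1a and Rpl29 led for Ccr2, and Cd74 (0.93), H2-DMa and Ccl6 for Ccr7, whose profile rests on 5 cells, 4 of them dendritic cell-like. Ccr1 and Cx3cr1 ran opposite to each other with r of -0.71, the lowest of all pairs of members. The highest was 0.57, for Ccr2 and Ccrl2. The 24 points share libraries and depth, so r is given as a description.

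Other receptors served as a comparison. Of 21 listed, 7 had enough UMIs for LP4 over UI and 1 of these, Cxcr6, was past 2-fold, with 11 UMIs in UI, 11 in LP1 and 52 in LP4. These UMIs are not scaled to the library totals, which were larger in LP1 and LP4 than in UI. Among all genes 24.7% were past 2-fold in this comparison. None of the 5 with enough UMIs for LP1 over UI was past 2-fold. Cmklr1, the signalling receptor of chemerin, measured 33.4 CPM in UI, 25.9 in LP1 and 25.5 in LP4, and Ccr3, an eotaxin receptor, 5.88, 7.30 and 10.1 CPM.

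Some ligands of Ccr1 rose with the receptor. Of 7 listed, 3 rose past 2-fold in LP4 over UI, where 11.1% of all genes did, and the median log2 ratio of the list was 0.25. Ccl4 went from 114 CPM in UI and 290.1 in LP1 to 2524 in LP4, Ccl3 from 133 and 266 to 749.9 CPM, and Ccl5 from 11.2 and 10.1 to 331 CPM. Ccl3 and Ccl4 were past 2-fold at 1 hour, with log2 ratios of 1.00 and 1.35, whereas Ccl5 had -0.15. Ccl9 and Ccl6, which were abundant in UI at 462 and 133 CPM, had log2 ratios of 0.25 and -0.30 for LP4 over UI.

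Of 4 listed ligands of Ccr2, 2 rose past 2-fold in LP4 over UI, where 11.1% of all genes did, while the receptor was lower. Ccl2 measured 66.5 CPM in UI, 175 in LP1 and 246 in LP4. Ccl12 went from 0.280 CPM on 10 UMIs in UI to 1.66 in LP1 and 11.4 in LP4. Ccl7 was highest in LP1, with 162, 251 and 148 CPM. Ccl8 stayed low, with 4.48, 2.69 and 3.62 CPM.

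Ligands of the remaining receptors were scarce in these cells. Cx3cl1 had 5, 8 and 14 UMIs in UI, LP1 and LP4, Cxcl12 had 1 UMI in each library, and Rarres2 had 5, 9 and 8. Ccl19 had at most 1 UMI and Ccl21a had 0. Mif, a cytokine that can also bind Cxcr4, measured 232 CPM in UI, 172 in LP1 and 131 in LP4, with a log2 ratio for LP4 over UI of -0.82.

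**Figure D5:**
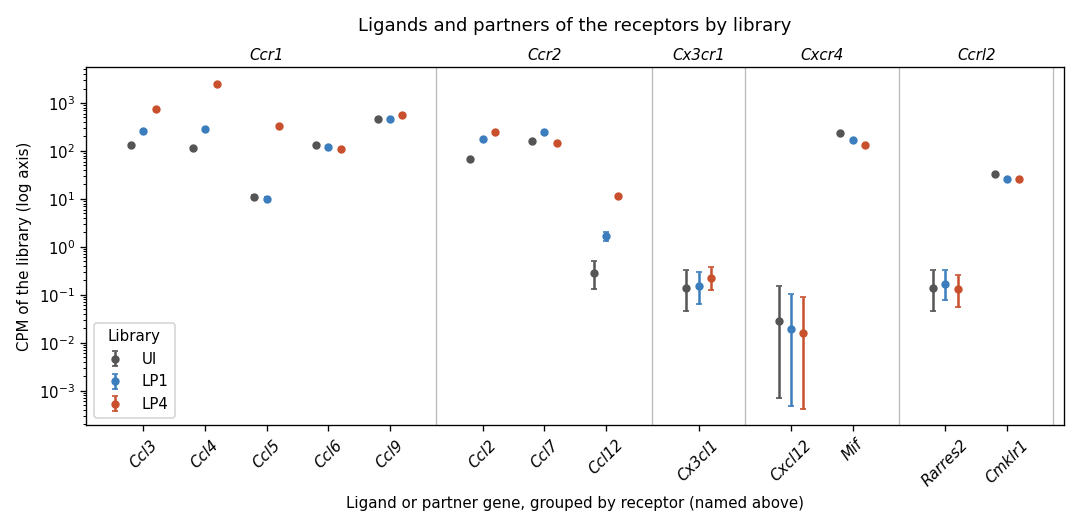
CPM (log vertical axis) of ligands and partners by library, grouped by the receptor named above each group, where points are library values and bars exact 95% Poisson intervals. Ccl4 stands at 2524 CPM in LP4, whereas Cx3cl1, Cxcl12 and Rarres2 stay below 1 CPM in each library.

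Genes that act behind the receptors were called at shares near those of all genes. Of 37 listed, 36 were in the matrix and tested, and of these 5 rose and 5 fell past 2-fold in LP4 over UI, with a median log2 ratio of -0.11, where 11.1% of all genes were higher and 13.6% lower. Rgs2 and Rgs1, which shorten G protein signals, fell from 167 CPM in UI and 191 in LP1 to 20.5 in LP4 and from 180.4 and 211 to 32.1 CPM. Dock2, an activator of Rac needed for leukocyte migration, measured 710.1 CPM in UI, 644 in LP1 and 181 in LP4, and Arrb1, a beta-arrestin, 76.4, 58.6 and 20.2 CPM. Plcb2 also fell. Jak2 rose from 117 and 126 to 469.8 CPM, Rgs16 from 0.925 and 1.54 to 9.23 CPM, and Rgs14 and Plcb3 rose as well. Gnb2, a beta subunit of G proteins, measured 83.9 CPM in UI, 229 in LP1 and 274 in LP4. For LP1 over UI it was the only 1 of the 36 genes past 2-fold, where 2.71% of 12526 genes were. Gnai2, the main inhibitory alpha subunit, measured 958, 896 and 892 CPM. Among the other abundant genes of the list, Cdc42 measured 447, 602 and 676 CPM, Gng5 488, 428 and 499.9 CPM, and Pik3r5 429.97, 414 and 521 CPM.

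The study grouped Ccrl2 with Nlrp3, Cxcl1, Cxcl2 and Il1f9 as genes associated with the inflammasome sensor Nlrp3, a choice made on these samples. It reported them as upregulated at 1 and 4 hours in its single-cell data and by RT-PCR, with Cxcl1 and Cxcl2 protein raised by ELISA. The RT-PCR values were relative to Actb in replicate cultures, a measure unlike the CPM of 1 library. Its supplementary list places Nlrp3 and Cxcl2 among genes higher in uninfected cells than in LP4. The same list places Cxcl1 among genes higher in LP1, and Ccr1 among genes higher in LP4, than in uninfected cells. In the summed counts here, Ccrl2 was higher than in UI in LP1 and LP4, with log2 ratios of 0.52 and 0.47. The genes grouped with Ccrl2 went in both directions at 4 hours. Nlrp3 fell from 573 CPM in UI and 533 in LP1 to 197 in LP4, and the neutrophil chemokine Cxcl2 from 4378 and 4553 to 1489 CPM. Il1f9 rose from 0.869 CPM in UI, on 31 UMIs, to 7.25 CPM in LP4, on 445 UMIs. Cxcl1, another neutrophil chemokine, was highest in LP1, with 623 CPM in UI, 1149 in LP1 and 682 in LP4, and had a log2 ratio of 0.88 for LP1 over UI and 0.13 for LP4 over UI.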

How the data were processed

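Single-cell 3′ RNA libraries (10x) of 3 conditions were used, 1 library each. The deposited values are UMI counts per gene and cell that the authors made with Cell Ranger 7.1.0 against mm10, per the submitters' processing notes. Whether intronic reads were counted is not given in the sources used here. Cells above 500 UMIs and 500 genes with below 5% mitochondrial UMIs were kept. They held 35688939 UMIs in UI, 52475723 in LP1 and 61402275 in LP4, with median mitochondrial shares of 1.97%, 2.84% and 3.17%. Columns of samples outside the series numbered 0.

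UMIs were summed per library or cluster and divided by all UMIs (CPM). Intervals were exact (Poisson for CPM, conditional binomial for ratios, Clopper-Pearson for shares), at 95%, and the limit for a count of 0 was 3 counts. Deposited counts are of molecules, so these intervals cover counting error and not the spread between cultures, which was not measured. Cells were clustered on 2000 variable genes that differed under 1.5-fold between libraries (no chemokine receptor, mitochondrial or ribosomal protein gene), centred per library, with 30 principal components, 20 neighbours and Leiden resolution 0.5 (scanpy 1.11.5, leidenalg 0.10.2, scikit-learn 1.9.0). Names ending in "-like" were rebuilt from fixed markers and may differ from the study's. Scrublet called between 0 and 1 doublets per library and so had not worked, and doublets were not removed. The integration of libraries and the cell-level tests of the study were left out.

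The members, lists and naming rules were chosen with earlier results of these data known. Named from the lists were genes past 2-fold in LP1 or LP4 over UI, the 3 with the highest CPM in any library and sole ligands, except 1 item that is not reported here. For each member the 3 genes most alike over clusters and libraries, among those with at least 20 CPM in 1 library, were named. Ratios and thinning were tested on simulated data. Alternatives covered the cells kept, scaling (TMM factors of edgeR 4.0.16, size factors of DESeq2 1.42.0, with no test by either), minimum counts, fold limit, thinning depth and resolution. Other tools were R 4.3.3, Python 3.11.15, pandas 2.3.3, matplotlib 3.10.9, scipy 1.17.1 and numpy 2.4.6.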

Additional observations from a re-analysis of the deposited data

Results flagged for a closer look

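Ccrl2 went in opposite directions in different macrophage clusters between 1 and 4 hours. In cluster B the log2 ratio of LP4 over LP1 was -0.51 (-0.70 to -0.32), from 489.9 to 344 CPM. In cluster C it was 0.11 (0.02 to 0.21), from 219 to 237 CPM, and in cluster E 0.32 (0.18 to 0.46), from 128 to 159 CPM. With 1 library per condition the difference between clusters was not tested, and B held 22.8% of the cells of LP1 but 1.91% of LP4.

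Ccr1 was also read in barcodes that failed the limits on UMIs, genes or mitochondrial share. In the 369 such barcodes of LP4 it reached 379.6 CPM (359 to 401), on 1285 UMIs. In the 52 of the untreated library it was at 115 CPM (46.1 to 236), on 7 UMIs, and in the 54 of LP1 at 57.0 CPM (33.2 to 91.3), on 17 UMIs. The order of UI and LP1 here was opposite to that in the kept cells, and their intervals overlapped.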

How the results depend on the processing

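No paired analysis was possible because each condition was 1 library. No ratio over UI of the 5 members with enough UMIs changed sign under the 9 alternatives on cells and scaling (Ccr7 was not included), and Ccr1 for LP4 over UI stayed between 2.60 and 2.90. The 1 member past 2-fold for LP4 over UI became 2 in macrophage-like cells (Cxcr4 at -1.02), 2 as a mean over cells (Cx3cr1 at -1.05), 2 without cluster F (Cxcr4 at -1.07, chosen after seeing the data) and 3 at a 1.5-fold limit, where 47.1% of genes passed. The share of higher among all called genes was 54.7% with TMM and 55.9% with median-of-ratios scaling for LP4 over UI, against 44.8%. It was 53.8% and 55.5% for LP4 over LP1, against 46.9%. Ccr2 for LP4 over LP1 lost its call at -0.92 with TMM, -0.89 with median-of-ratios scaling and -0.997 without the cells of the highest doublet scores. Ccrl2 there had 0.04 and 0.07 under these scalings. Without thinning 2 members, Ccr1 and Ccrl2, had their highest share of cells in LP4, against 1 with it. At Leiden resolution 0.3 Ccr1 was higher in LP4 than in UI in 5 of 5 clusters, against 8 of 8. The cause of these changes was not tested. The readings of Ccr7 rest on 51 UMIs from 5 cells, and depth limits those of Cxcr4 and Cx3cr1 in small clusters.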

Other observations

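The 85 neutrophil-like cells, led by S100a8, S100a9 and Ngp, numbered 32 in UI, 25 in LP1 and 28 in LP4. Cxcr4, which retains immature neutrophils in the marrow, had 1, 3 and 14 UMIs in them, in 1, 3 and 12 cells. In LP4 that was 58.4 CPM against 8.09 in macrophage-like cells, a log2 ratio of 2.85 (1.97 to 3.61). Over UI, at 9.56 CPM, the log2 ratio was 2.61, with an interval that held 0. Cx3cr1 was at 50.1 CPM in the neutrophil-like cells of LP4 (12 UMIs) against 14.8 in macrophage-like cells. Ccr1 was lower in the same cells, at 113 against 477 CPM, a log2 ratio of -2.08 (-2.68 to -1.54). The 28 cells are from 1 library, and these values carry counting error only.

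The 250 dendritic cell-like cells had more Ccr2 than macrophage-like cells in each library. The log2 ratio was 1.55 in UI (0.98 to 2.07), 1.56 in LP1 (1.18 to 1.92) and 1.18 in LP4 (0.62 to 1.70). Ccr1 was higher in them in UI, by 0.81 (0.44 to 1.15), and in LP1, by 0.84 (0.61 to 1.07), whereas in LP4 the difference was 0.03 (-0.10 to 0.16). Ccrl2 was higher in all 3 libraries, with log2 ratios of 0.82, 0.51 and 0.43. Cx3cr1 was close to the macrophage-like level in UI and LP1 and was at 5.64 against 14.8 CPM in LP4, a log2 ratio of -1.39 (-2.84 to -0.26).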
